A study of Homo sapiens with 14 samples.

Results

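Chromatin immunoprecipitation with a ZNF143 antibody gave 3523 regions that lay inside protein-coding genes, away from promoters, and that were found both with and without acute ZNF143 depletion. They were chosen from the 2 deposited peak lists. Peaks that overlapped by at least 1 bp were merged into 40687 regions. Of these, 14794 (36.4%) held peaks of both lists. A shared region was kept when its centre lay outside every window from 2 kb upstream to 1 kb downstream of an annotated transcription start site (TSS) and inside the body of a protein-coding gene. The kept regions were 23.8% of all shared regions. Presence in both lists and position in the gene therefore chose them, and neither is a finding here.

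The cells were HEK_CloneZD29, a single clone of HEK293T, the human embryonic kidney line, in which ZNF143 carries an inducible degron (FKBP12F36V). All cells compared here carried the degron, the untreated ones included. The label reads Untreated for 4 samples. The other 4 received dTAG-V1 at 0.5 µM for 30 min, and all 8 were precipitated with the polyclonal ZNF143 antibody of Proteintech. Each condition is represented by 1 list of peaks without values per replicate, so no test between conditions could be made. Intervals given below are 95% Wilson intervals, which cover counting error only.

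ZNF143 is a zinc finger activator that binds long sites, SBS1 and SBS2, mostly in promoters. CTCF is another zinc finger protein, which binds a different motif at many sites inside and between genes and halts cohesin when chromatin loops form. dTAG-V1 joins the tagged protein to an E3 ligase, so that the protein is degraded. A polyclonal antibody can also pull down proteins other than its target, and the study asked whether the Proteintech antibody detects CTCF. Intragenic sites bear on that question because most of them lie far from the promoters where ZNF143 is known to act.

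Some of these regions are printed to show what the groups described below look like in sequence. All are from hg38, on the + strand, and coordinates count from 1. Capitals mark the best CTCF hit in RORA, ZNF143 and PXDC1, and the best SBS hit in CA11. In NRXN2 the capitals mark a CTCF hit, then an SBS2 hit. In CARM1 and MGLL they mark an SBS2 hit with the strings beside it that are described below. In DACH1, which has no hit of either motif, they mark a string that was frequent in such regions.
RORA intron 2, chr15:60585918-60586037: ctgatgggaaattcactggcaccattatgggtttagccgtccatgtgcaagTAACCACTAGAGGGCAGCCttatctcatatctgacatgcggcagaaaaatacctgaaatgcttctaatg
ZNF143 intron 11, chr11:9506875-9506994: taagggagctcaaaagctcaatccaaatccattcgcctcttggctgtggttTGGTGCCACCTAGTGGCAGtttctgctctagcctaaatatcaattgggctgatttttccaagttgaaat
PXDC1 intron 1, chr6:3742506-3742625: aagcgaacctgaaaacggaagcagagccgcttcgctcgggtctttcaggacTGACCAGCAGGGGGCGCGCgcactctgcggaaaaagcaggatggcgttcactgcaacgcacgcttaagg
CA11 intron 2, chr19:48644876-48644995: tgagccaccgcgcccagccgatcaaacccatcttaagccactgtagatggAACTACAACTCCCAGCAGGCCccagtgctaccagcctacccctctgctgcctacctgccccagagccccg
NRXN2 intron 5, chr11:64688537-64688656: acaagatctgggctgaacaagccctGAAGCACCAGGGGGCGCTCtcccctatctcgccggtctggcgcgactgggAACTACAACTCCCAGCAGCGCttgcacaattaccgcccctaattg
CARM1 intron 1, chr19:10879285-10879404: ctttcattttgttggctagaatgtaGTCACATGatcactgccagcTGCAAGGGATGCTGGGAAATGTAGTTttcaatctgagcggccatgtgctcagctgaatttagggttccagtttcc
MGLL intron 6, chr3:127697534-127697653: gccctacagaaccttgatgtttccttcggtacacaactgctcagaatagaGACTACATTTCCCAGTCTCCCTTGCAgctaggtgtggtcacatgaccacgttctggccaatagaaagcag
DACH1 intron 1, chr13:71831774-71831973: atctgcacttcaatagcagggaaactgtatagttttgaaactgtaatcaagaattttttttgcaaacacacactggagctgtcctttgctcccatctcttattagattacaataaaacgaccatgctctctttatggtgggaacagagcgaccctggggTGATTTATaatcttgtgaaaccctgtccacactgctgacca

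Nearly all of the regions were intronic, at the rate that intron length gives. The centre lay in an intron in 93.7% (92.8 to 94.4) of the 3523 regions, and introns made up 94.1% of the searched bases. Exons of any kind held 223 regions, which is 6.33% (5.57 to 7.18) beside 5.92% of the bases. Within exons, 3′ UTRs held 3.92% of regions and 3.02% of bases, whereas coding exons held 1.22% of regions and 1.89% of bases. Cut into 4 equal stretches from the 5′ end, the genes held 25.2%, 24.4%, 24.8% and 25.6% of the regions in turn. Position along the gene was thus even over all regions, to within the counting interval of each stretch. The classes leaned to opposite ends, as given below. The median distance to the nearest TSS was 10196 bp.

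A protein-coding gene held such a region in 2308 of 19970 cases (11.6%). Most of these genes, 1637, held 1 region, 382 held 2, 134 held 3, 72 held 4 and 83 held 5 or more. Genes with a region were long, with a median of 122819 bp beside 22977 bp for genes without one. In genes of 300000 bp or more, 53.9% held a region. Of those 444 long genes, 44.4% (39.8 to 49.0) also had a shared region in their own TSS windows, beside 19.5% (15.8 to 23.8) of the 379 long genes without an intragenic region. In genes of 30000 to 100000 bp these shares were 39.4% (35.9 to 43.1) and 41.3% (39.9 to 42.6), with overlapping intervals. Between these sizes, at 100000 to 300000 bp, they were 43.0% (39.8 to 46.3) and 34.99% (32.9 to 37.1). In genes of 10000 to 30000 bp they were 40.4% (34.2 to 46.8) and 39.4% (38.1 to 40.7). Under 10000 bp they were 14.6% (7.25 to 27.2) of 48 genes and 25.4% (24.2 to 26.6), with overlapping intervals. Genes with an intragenic region thus had a promoter region more often only among those of 100000 bp or more.

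At the threshold used here, CTCF motif hits were more frequent than SBS hits. A hit was a match at p 1e-05 to a matrix learned from the merged peaks, on either strand. CTCF hits were present in 1076 regions, or 30.5% (29.0 to 32.1), beside 4.74% of stretches of the same width shifted by 2 kb. SBS hits were present in 787 regions, or 22.3% (21.0 to 23.7), beside 15.1% of the shifted stretches. The excess over the flanks was thus much smaller for SBS than for CTCF. At a stricter p of 1e-06, 10.2% of regions and 2.63% of flanks had an SBS hit, and 21.2% and 0.866% a CTCF hit. At a looser p of 5e-05 the order turned, with SBS hits in 43.9% (flanks 40.9%) and CTCF hits in 40.7% (flanks 16.96%). By type, SBS1 hits were present in 17.8% of regions (flanks 8.98%) and SBS2 hits in 11.8% (flanks 7.82%).

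**Figure D1:**
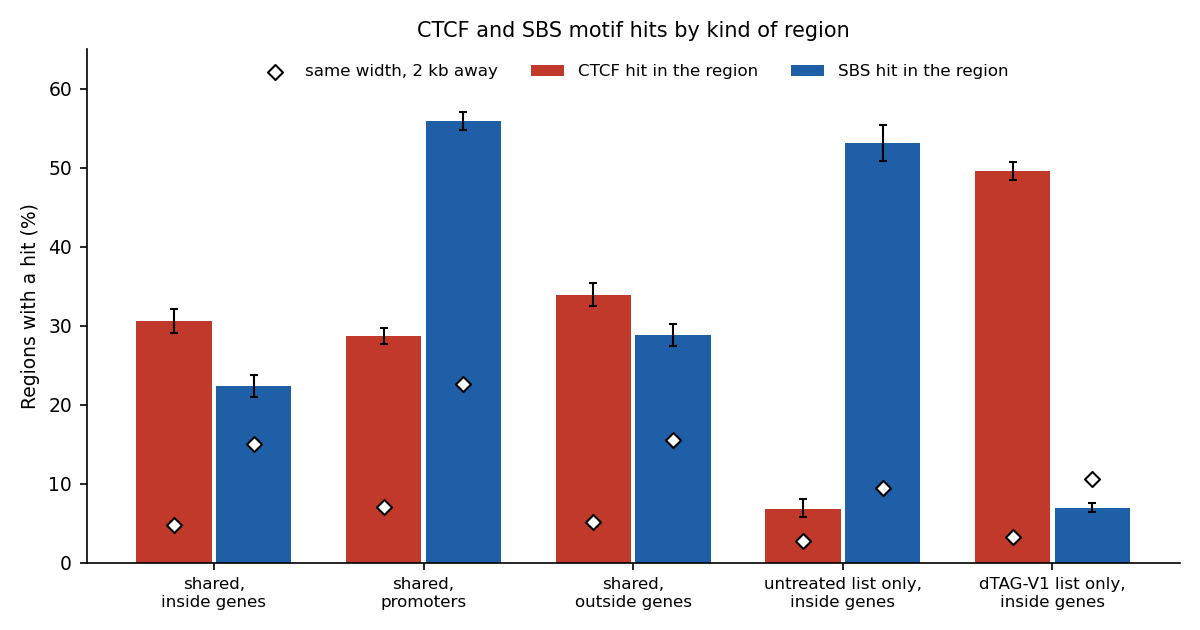
Percentage of regions with a CTCF hit (red bars) or an SBS hit (blue bars) at p 1e-05, for the intragenic shared regions (n = 3523) and the other kinds of region. Lines are 95% Wilson intervals and diamonds the same percentage in flanks of equal width 2 kb away. The intragenic shared regions had CTCF hits in 30.5% and SBS hits in 22.3%, and they lay between the untreated-only and dTAG-V1-only intragenic regions for both motifs.

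Other kinds of region differed in both motifs. In shared regions at promoters, 55.9% (54.8 to 57.1) had an SBS hit and 28.7% (27.7 to 29.8) a CTCF hit. Outside protein-coding genes and promoters, the shared regions had SBS hits in 28.8% and CTCF hits in 33.9%. Inside genes but in 1 list only, the shares moved apart. The 1906 untreated-only regions had SBS hits in 53.1% (50.9 to 55.4) and CTCF hits in 6.82% (5.77 to 8.04). The 7726 regions found only with dTAG-V1 had SBS hits in 6.98% (6.43 to 7.57), below the 10.5% of their flanks, and CTCF hits in 49.6% (48.5 to 50.7). The shared intragenic regions stood between these groups.

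By motif, the 3523 regions fell into 811 with a CTCF hit only (23.0%), 522 with an SBS hit only (14.8%), 265 with both (7.52%) and 1925 with neither (54.6%). Background matches can be part of each class with a hit, since 15.1% of the shifted stretches also had an SBS hit and 4.74% a CTCF hit. These classes were not found again to the same extent. Of the intragenic regions of the untreated list, 64.9% (3523 of 5429) were also in the dTAG-V1 list. With a CTCF hit only, 92.8% (90.9 to 94.3) were in both lists. With an SBS hit only the share was 35.6% (33.2 to 38.04), with both 79.8% (75.2 to 83.8) and with neither 69.9% (68.1 to 71.6). The interval of the CTCF class did not overlap any other, and that of the SBS class lay lowest. Thus, of the intragenic regions in the untreated list, those with an SBS hit alone were most often missing from the list made after depletion. Of the intragenic regions of either list, which also count those found only with dTAG-V1, the order was another one. The share in both lists was then 18.5% (811 of 4385) for CTCF only, 30.9% for SBS only, 40.7% for both and 29.9% for neither. Shared intragenic regions, merged from peaks of both lists, were wider, with a median of 550 bp. Untreated-only and dTAG-V1-only intragenic regions had medians of 293 bp and 338 bp. In their flanks of equal width, SBS hits were present in 15.1%, 9.44% and 10.5% in turn, so background matches were more frequent in wider stretches. The shares by class were not adjusted for width.

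The classes also differed in place and composition. First introns of the canonical transcript held 30.8% of the SBS regions, 25.3% of those with neither motif, 17.7% of those with both and 14.3% of the CTCF regions, beside 20.1% of the searched bases. 3′ UTRs held 7.92% of the regions with both motifs and 6.54% of the CTCF regions, beside 3.07% of the SBS regions. Counted from the 5′ end, the median position was 62.1% of the gene for the CTCF regions and 58.7% for those with both, beside 45.4% for the SBS regions and 47.1% for those with neither. The median GC content over 500 bp was 39.2% with neither motif, 43.0% with CTCF, 46.2% with SBS and 51.4% with both. The flanks had medians of 40%, 44%, 44.4% and 48.4%, so each class lay in DNA of roughly its own composition. Only 110 of the 3523 regions (3.12%) were CpG-rich (GC above 50% and a CpG ratio above 0.6), compared with 63.8% of the shared promoter regions.

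Ranks within the lists separated the CTCF class from the SBS class. Each peak has a score that follows its q-value. Rank 1, or a percentile of 100, is the highest score of its list. There were 20429 peaks in the list from untreated cells and 35287 in that from treated cells. A percentile depends on the other peaks of the list, so a higher percentile is not by itself a higher signal. Intragenic regions found only with dTAG-V1 had a median percentile of 37.3 in their list, and a list with more such peaks raises the percentile of the others. Over all 3523 regions the median was 41.9 untreated and 68.1 with dTAG-V1, and 81.0% (79.7 to 82.2) were higher in the dTAG-V1 list. CTCF regions had a median percentile of 26.3 untreated and 74.96 with dTAG-V1, and 780 of 811 (96.2%, interval 94.6 to 97.3) were higher in the dTAG-V1 list. SBS regions had medians of 75.9 and 72.7, and 316 of 522 (60.5%, 56.3 to 64.6) were higher in the dTAG-V1 list. Regions with both motifs had medians of 49.5 and 76.2, and those with neither 42.9 and 60.7, with 80.5% higher in the dTAG-V1 list. Beside the share over all regions, that of the CTCF class was higher and that of the SBS class lower.

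**Figure D2:**
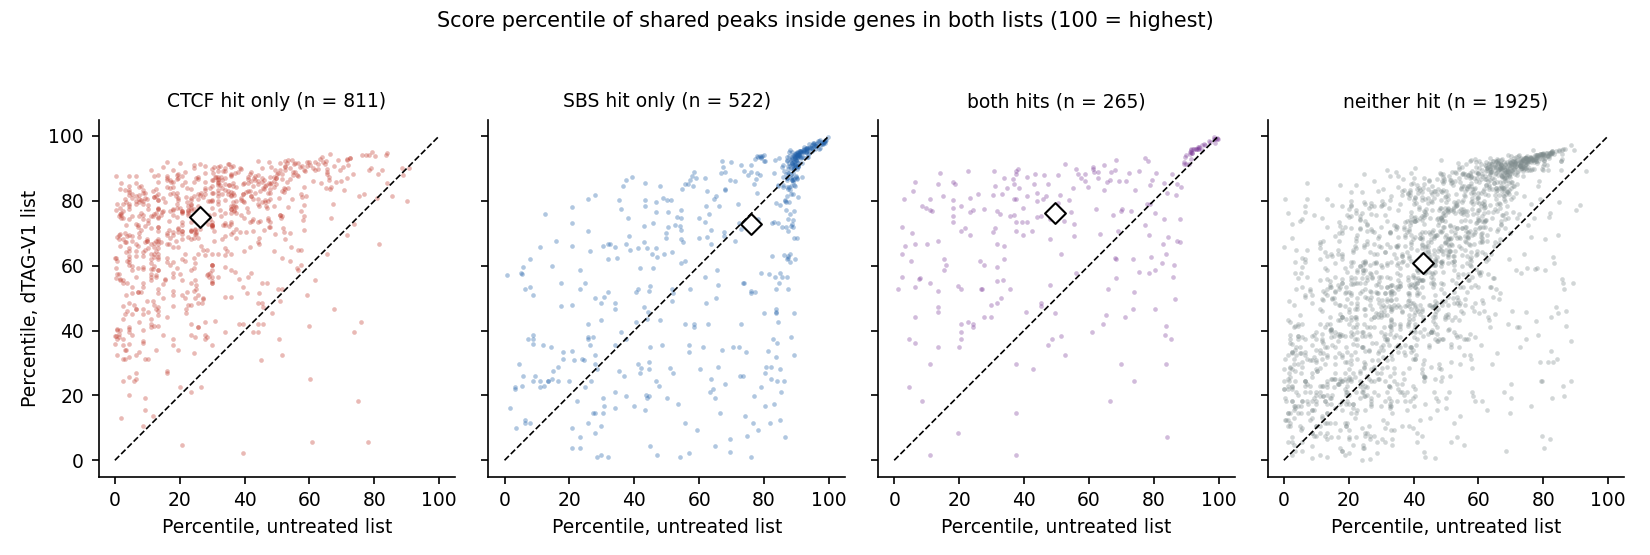
Each point is 1 intragenic shared region, with its score percentile in the untreated list (x axis) and in the dTAG-V1 list (y axis), in 1 panel for each motif class. Diamonds are medians and dashed lines mark equal percentiles. In the CTCF panel 780 of 811 points lie above the line, and in the SBS panel a dense group lies at the top right, with others spread over the lower right.

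Almost all regions with the highest untreated scores had an SBS hit. Of the 129 regions in the top decile of the untreated list, 96.9% had an SBS hit. Of the 382 in the lowest decile, 11.8% had an SBS hit and 49.5% a CTCF hit. The top-decile regions with an SBS hit only, 92 in number, stayed high with dTAG-V1, from percentile 68.4 to 99.5 with a median of 95.4. In the decile below, the 144 SBS regions ranged from 7.04 to 95.6 with dTAG-V1 (median 84.6), and 25 of them lay below 50. In that same decile the dTAG-V1 medians were 88.0 for 12 CTCF regions, 67.7 for 29 with both motifs and 92.4 for 69 with neither. In the lowest untreated decile, the 168 CTCF regions had a median dTAG-V1 percentile of 63.7. There the 24 SBS regions had 32.8, the 21 with both 61.5 and the 169 with neither 28.0. Strong matches to the matrix went with high percentiles for SBS. SBS regions in the highest tertile of matrix scores (21.5 to 33.3) had medians of 89.9 and 93.1, beside 54.7 and 52.8 in the middle tertile and 50.8 and 53.2 in the lowest. For CTCF regions the difference was smaller, and the highest tertile had 27.8 and 79.1 and the lowest 24.5 and 71.1.

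Among single regions, CA11 stood near the top of both lists. CA11 encodes a carbonic anhydrase relative without enzyme activity, and its second intron holds an SBS2 hit 1171 bp from the nearest TSS. Its rank was 61 untreated and 161 with dTAG-V1, with fold enrichments of 39.8 and 33.3, each on the scale of its own list. PHF21A, a chromatin reader of the LSD1 complex, had an SBS2 hit in its first intron and ranks of 168 and 473. LMTK3, a membrane kinase, had one in its first intron and ranks of 218 and 432. All 3 are on the list of the best SBS regions, and their untreated percentiles were 98.9 or more. The best CTCF regions ranked lower. The region in RORA, a nuclear receptor of the circadian clock, had ranks of 1881 and 3482, and its CTCF hit lay 54.5 bp from the untreated summit and 38.5 bp from the dTAG-V1 summit. KCTD3 had ranks of 3289 and 1806 and a CTCF hit within 22.5 bp of both summits. In HIBADH, a mitochondrial enzyme of valine breakdown, ranks were 3379 and 2027, but the CTCF hit lay 607.5 bp and 533.5 bp from the summits, at the end of the region.

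Regions with both motifs included 3 near the head of the lists. RTN2, which shapes the endoplasmic reticulum, held one in its 3′ UTR with ranks of 103 and 181. Its SBS2 hit was 25.5 bp from the untreated summit and its CTCF hit 420.5 bp. In BCAT2, the mitochondrial aminotransferase of branched-chain amino acids, ranks were 59 and 294, with the SBS2 hit 87.5 bp and the CTCF hit 278.5 bp from the untreated summit. The third, in ENSG00000268643, had ranks of 268 and 130, with the CTCF hit nearer (89.5 bp) than the SBS2 hit (203.5 bp). The best regions with neither motif were in ATP6V1E2, a subunit of the vacuolar proton pump (ranks 2327 and 1027), PCDH9, a protocadherin of neurons (2159 and 1538), and TMEM100 (2705 and 1370). These 3 had percentiles of 86.8 to 89.4 untreated and 95.6 to 97.1 with dTAG-V1.

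The largest moves in percentile also differed by motif. Moves were ranked only among regions with a hit of either motif. Among those, upward moves were led by regions with a CTCF hit. The region in PXDC1, printed above, went from 0.39 untreated to 87.8 with dTAG-V1. Its summits lay 472 bp apart, and its untreated peak, at a −log10 q-value of 2.45, did not reach the CTCF hit. That hit was 511.5 bp from the untreated summit and 39.5 bp from the dTAG-V1 summit. The percentiles of this region therefore belong to summits at different places. FRRS1, a ferric reductase, went from 2.02 to 85.6 in its 3′ UTR, and NEBL, a protein of cardiac muscle, from 4.47 to 87.5. Each had a CTCF hit and no SBS hit. The largest rises among regions with an SBS hit were in SSH1, a cofilin phosphatase (6.46 to 85.8), MOBP, a myelin protein (3.11 to 80.6), and DCDC2, a microtubule-binding protein (5.75 to 83.1). All 3 also held a CTCF hit. In SSH1 and MOBP the CTCF hit lay nearer to the dTAG-V1 summit (26.5 bp and 13.5 bp) than the SBS hit (199.5 bp and 315.5 bp), and in DCDC2 the dTAG-V1 summit was over 200 bp from both.

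Among regions with a hit of either motif, downward moves were led by regions with an SBS1 hit, not all of them strong. Regions with neither motif were not ranked, though large falls occurred among them too. The 69 of them in the second-highest untreated decile went as low as percentile 3.65 with dTAG-V1. PPP1R15B, which targets a phosphatase to the translation factor eIF2α, went from 86.4 to 7.04, with an SBS1 hit 6 bp from the untreated summit. C4orf45 went from 84.3 to 7.04, with a weak SBS1 hit 11 bp and a weak CTCF hit 195.5 bp from the untreated summit. ZNF487, a zinc finger gene, went from 75.9, at rank 4924, to rank 34838 of the dTAG-V1 list. Its SBS1 hit was weak too, lay 93 bp and 103 bp from the summits and fell outside the dTAG-V1 peak. The SBS1 hits of C4orf45 and ZNF487 had matrix scores of 11.88 and 12.3, within the range of the lowest tertile of SBS regions (9.81 to 13.96). The falls among regions with a CTCF hit were led by the same C4orf45 region. MSRA, a methionine sulfoxide reductase, followed with 78.2 to 5.65, and HTR4, a serotonin receptor, with 75.03 to 18.2. Both had a CTCF hit only, so a low rank after treatment also occurred without an SBS hit. The CTCF hit of MSRA was weak, however, and fell outside its dTAG-V1 peak. Its matrix score of 12.71 was within the lowest tertile of CTCF regions (11.51 to 17.06).

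Summits lay near hits of both motifs, and how often they did so differed between the lists. In CTCF regions, the best hit lay within 50 bp of the untreated summit in 65.1% (61.8 to 68.3) and of the dTAG-V1 summit in 83.7% (81.0 to 86.1). A summit placed evenly over the peak would give 19.5% and 20.1%. The median distance was 29.5 bp and 16.5 bp. In SBS regions the shares ran the other way, with 61.7% (57.4 to 65.8) untreated and 45.2% (41.0 to 49.5) with dTAG-V1, beside 17.1% for an even placement in either list. Median distances were 24.8 bp and 69.2 bp. Summits of the dTAG-V1 list were therefore closer to CTCF hits and farther from SBS hits than those of the untreated list.

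**Figure D3:**
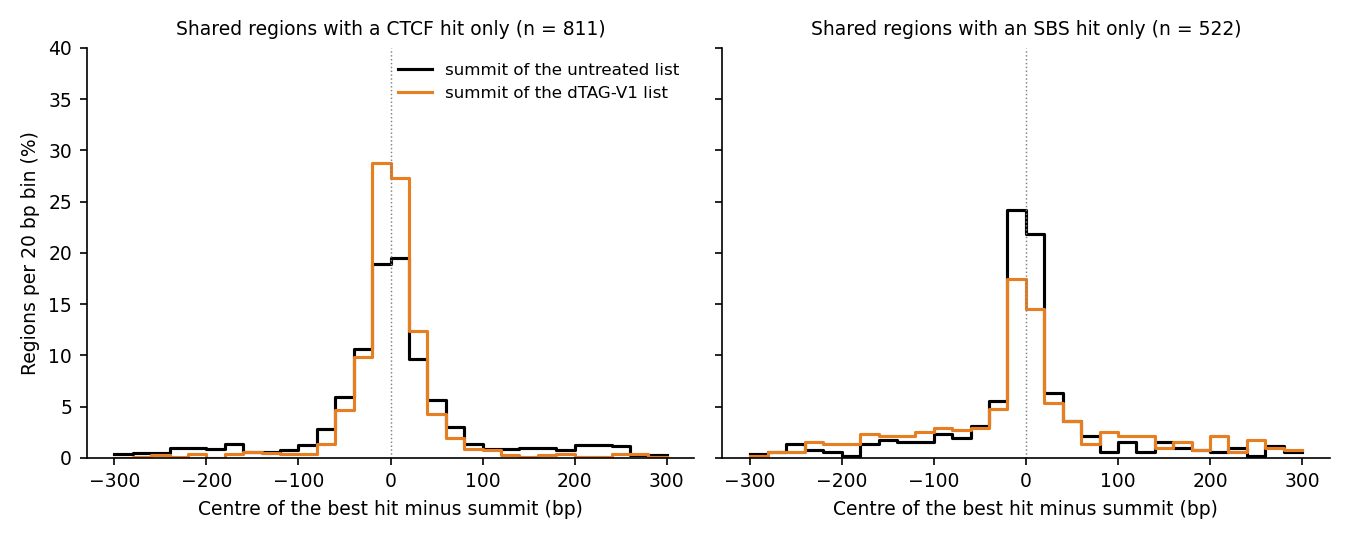
Distance in bp from the summit to the centre of the best hit (x axis) and the percentage of regions per 20 bp bin (y axis), for the 811 regions with a CTCF hit only (left) and the 522 with an SBS hit only (right). The orange line (dTAG-V1 summits) is the higher one at 0 bp on the left and the lower one on the right. Within 50 bp lie 83.7% of hits against 65.1% untreated for CTCF, and 45.2% against 61.7% for SBS.

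Regions with both motifs allowed both to be set side by side in the same DNA. Some of their SBS hits can be background matches, since 15.1% of the shifted stretches had one. In 256 of the 265 the hits did not overlap, and their centres were a median of 133 bp apart. The CTCF hit was nearest to the untreated summit in 131 of 256 (51.2%, interval 45.1 to 57.2) and to the dTAG-V1 summit in 172 (67.2%, 61.2 to 72.6). In 49 regions the nearest motif went from SBS untreated to CTCF with dTAG-V1, and in 8 from CTCF to SBS. The others kept the nearest motif, CTCF in 123 and SBS in 76. Both summits of a region were a median of 30 bp apart over all 3523 regions, and 321 (9.11%) were over 200 bp apart. By class the median was 19.5 bp for SBS, 23 bp for both, 25 bp for CTCF and 36 bp for neither.

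In NRXN2, a presynaptic adhesion gene, both hits are visible in the printed sequence. The SBS2 hit lay 10.5 bp from the untreated and 8.5 bp from the dTAG-V1 summit, and the CTCF hit 61.5 bp and 59.5 bp. The region had ranks of 280 and 313. It is thus an example in which the summit stayed on the SBS2 hit in both lists. ZNF143 itself held 1 region, in intron 11 of 15, with a CTCF hit and no SBS hit. This region was singled out after its values were seen. It had a percentile of 27.8 untreated and 82.2 with dTAG-V1, and the hit was 41.5 bp and 26.5 bp from the summits.

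SBS2 hits had a preferred orientation within genes. The best SBS hit was an SBS2 hit in 351 regions, and in 101 of them (28.8%, 24.3 to 33.7) it read in the direction of the gene. At p 1e-06 the share was 21.2% (50 of 236, 16.5 to 26.8). SBS1 hits read along the gene in 47.2% (206 of 436, 42.6 to 51.9), and SBS2 hits of the flanks in 49.4% (272 of 551, 45.2 to 53.5). The flank value counts every flank with an SBS2 hit, whichever SBS type scored higher there, so the sets are not alike. The untreated-only intragenic regions had 28.1% (92 of 327, 23.5 to 33.2) for SBS2. CTCF hits read along the gene in 45.1% (485 of 1076, 42.1 to 48.1), and those of the flanks in 41.9% (36.7 to 47.3), while CTCF hits of the dTAG-V1-only regions had 49.1% (47.5 to 50.6). SBS2 in shared and untreated-only regions thus lay mostly against the gene, whereas the interval of SBS1 included 50%.

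**Figure D4:**
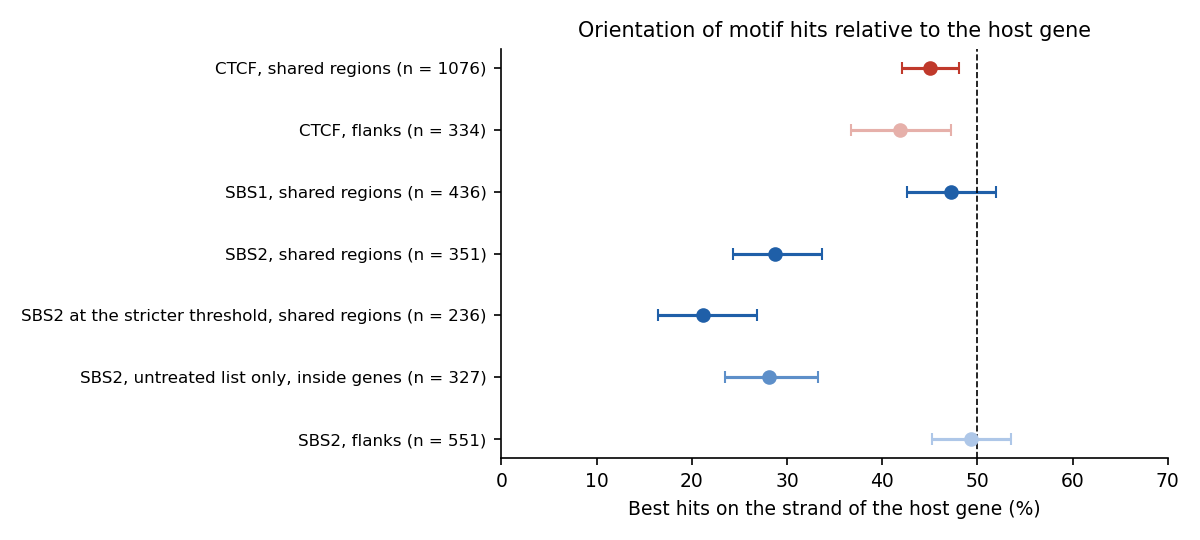
Percentage of best hits that lie on the strand of the host gene (x axis), with 95% Wilson intervals as lines and the number of hits beside each name. The dashed line is 50%. The flanks of SBS2 are all flanks with an SBS2 hit, whichever SBS type scored higher there. SBS2 hits of the shared regions (28.8%, or 21.2% at p 1e-06) and of the untreated-only regions (28.1%) lie left of it, while SBS1 hits (47.2%) and SBS2 hits of the flanks (49.4%) have intervals that include it.

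Neighbouring regions of the same gene that both had a CTCF hit formed 96 pairs. Their motifs were in tandem in 54 (56.2%, 46.3 to 65.7), divergent in 28 (29.2%, 21.0 to 38.9) and convergent in 14 (14.6%, 8.89 to 23.0). Tandem pairs can point either way, so strands without any preference also make them the most frequent. Convergent motifs are the arrangement known from the bases of cohesin loops. Among these pairs it was the least frequent, but they were paired only as neighbours in a gene. Whether they are bases of loops was not tested.

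Some SBS2 hits had recurrent strings at fixed places beside them. Among the strings of 8 bases near SBS2 hits, CCCTTGCA recurred at bases 19 to 26 counted from the start of the 21-base hit, and CATGTGAC at bases 39 to 46, on the strand of the hit. Both were picked after the data had been seen, and positions were allowed to vary by 1 base. Of the 415 regions with an SBS2 hit, 38 held the first string, 47 the second, 14 both and 71 either (17.1%, 13.8 to 21.0). Promoters held either in 19 of 2055 regions with an SBS2 hit (0.925%, 0.593 to 1.44). Shared regions outside genes held either in 157 of 703 (22.3%), untreated-only intragenic regions in 69 of 449 (15.4%), and dTAG-V1-only ones in 1 of 233. The strings were therefore more frequent than at promoters in shared regions inside and outside genes, and in untreated-only intragenic regions. The dTAG-V1-only share, 0.429% (0.076 to 2.39), was not above that of promoters.

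Regions with either string ranked high in both lists. The 71 had median percentiles of 90.1 untreated and 93.8 with dTAG-V1, beside 73.3 and 79.7 for the other 344 regions with an SBS2 hit. In 67 of the 71 the region was intronic, and in 8 the hit read along the gene. Over the 44 bases around the hit that lie outside both strings, pairs of the 71 were identical at a median of 34.1% of bases, beside 25.0% for pairs of the others. Whether these stretches belong to a repeat family was not tested, because the genome at hand is not masked for repeats. In CARM1, an arginine methyltransferase, the hit is on the - strand, so that the printed capitals read as the reverse complements of both strings. That region had ranks of 966 and 1189, with the hit 7.5 bp from both summits. MGLL, the lipase of monoacylglycerols, held the first string, 7.5 bp and 6.5 bp from the summits, with ranks of 907 and 719. Others with high ranks were in MGAT3 (552 and 426), MLKL, the effector of necroptosis (697 and 556), and CTNNA1, which links cadherins to actin (1251 and 1226).

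The largest class, the 1925 regions with neither motif, was marked by A- and T-rich strings. ATAAATCA lay within 100 bp of the centre in 6.13% (5.14 to 7.29), beside 1.43% of flanks. GCAATAAA was present in 5.30% (flanks 1.27%), CTCATAAA in 4.47% (0.857%) and AAGATAAG in 4.21% (0.883%), on either strand in each case. These were the leading strings of the class that did not overlap each other, chosen from the same regions, so their shares are a description. Any of the 4 was present in 354 regions (18.4%, 16.7 to 20.2), beside 4.34% of flanks. In regions without either motif of the other kinds, any of the 4 was present in 19.1% (17.4 to 21.0) outside genes, 9.40% (7.60 to 11.6) of the untreated-only and 10.99% (10.0 to 12.0) of the dTAG-V1-only intragenic regions, and 4.73% (3.93 to 5.68) of the promoter regions. The strings were thus about as frequent in shared regions outside genes, and less frequent at promoters and in intragenic regions of 1 list only.

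Regions with ATAAATCA had median percentiles of 45.7 untreated and 70.5 with dTAG-V1, those with GCAATAAA 42.2 and 63.4, and those with CTCATAAA 47.6 and 67.8. Regions with AAGATAAG had 42.5 and 58.6, the same values as the 1571 regions with none of the 4 strings. The best ATAAATCA region was in the first intron of DACH1, a transcriptional repressor of eye and limb development, with ranks of 3086 and 1681. A second DACH1 region held GCAATAAA (ranks 4281 and 1926). AFF3 held the best CTCATAAA region, with ranks of 3689 and 1987. Strings of this kind occur in the sites of homeodomain and GATA factors in general. No factor was measured here other than by the antibody.

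Genes with many regions were long and held mostly regions with neither motif. LRMDA, a gene of melanocyte differentiation, and RAD51B, a gene of DNA repair, held 18 each, of which 14 and 13 had neither motif. AUTS2, a neurodevelopmental gene, held 17 (12 with neither), and DACH1 and NFIA, a transcription factor of the nuclear factor I family, held 13 each. PCDH9, TTC28 and WWOX held 12 each. NKAIN2 and PDE4D, a cyclic AMP phosphodiesterase, held 11 each. All 11 in NKAIN2 had neither motif, whereas TTC28 had 5 CTCF hits among 12 and PDE4D 4 among 11. Per Mb of gene body outside TSS windows, DACH1 held 31.2 regions and PDE4D 7.42, beside 3.16 over all protein-coding genes. The order by count was therefore not the order by density.

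Among 12 gene lists, the HOX genes stood apart in density. HOX genes set the identity of segments along the body axis. Of 39, 7 held 11 regions in 0.126 Mb, or 87.4 per Mb. HOXA3 held 4, HOXB3 held 3, and HOXD3, HOXB7, HOXC4 and the overlapping HOXC6 and HOXC8 held the other 4. None had a CTCF hit, 1 had an SBS hit, and 10 were without either. Ranks ran from 4663 to 13859 untreated and from 2588 (HOXB3) to 34838 (HOXC4) with dTAG-V1. The best was in the second intron of HOXB3, with percentiles of 77.2 and 92.7, and another HOXB3 region was the only HOX region with 1 of the 4 strings, ATAAATCA. The count rests on a short searched length. With windows at the 5′ ends of genes alone, chosen after the data had been seen, it was 27 regions and 132.7 per Mb.

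**Figure D5:**
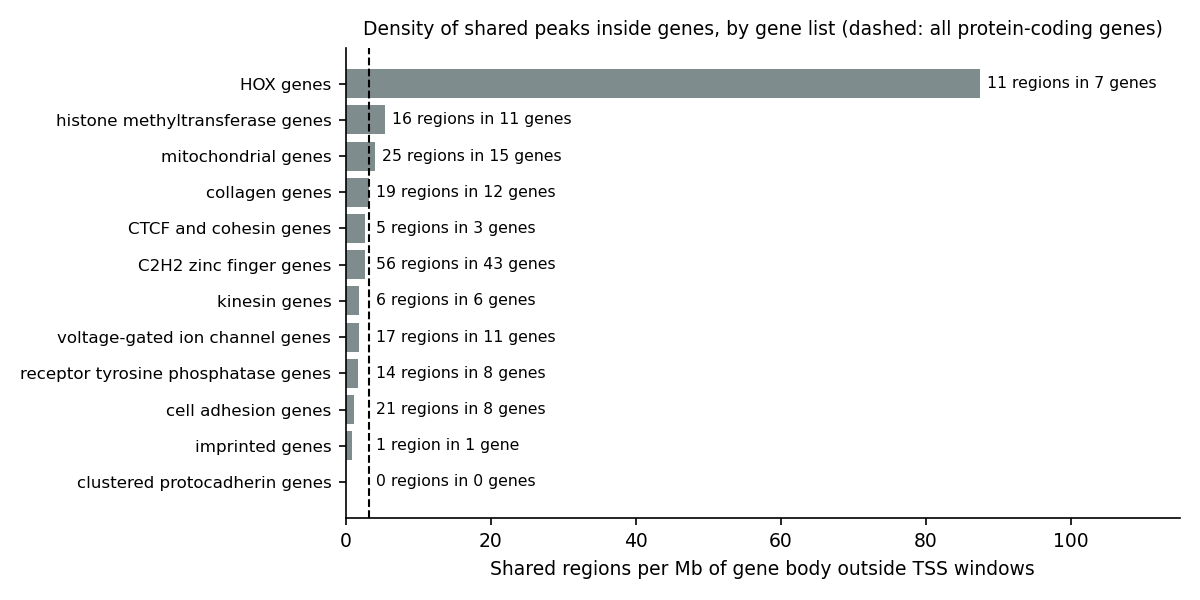
Shared regions per Mb of gene body outside TSS windows (x axis, bars from 0) for 12 gene lists, with the number of regions and genes beside each bar. The dashed line is the density over all protein-coding genes, 3.16 per Mb. HOX genes reach 87.4 per Mb from 11 regions, and the other lists lie between 0 and 5.34 per Mb.

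The other lists lay nearer to all genes in density. The share of genes with a region was 11.6% over all protein-coding genes, and by this share the lists had another order. It was 40% for receptor tyrosine phosphatase genes and 5.68% for mitochondrial genes. Their median gene lengths were 189680 bp and 13100 bp, beside 27476 bp for all protein-coding genes. Histone methyltransferase genes held 16 regions in 11 of 46 genes (5.34 per Mb), with 4 in PRDM16, 3 in PRDM6 and 1 in the second intron of KMT2C. EZH2, singled out after its values were seen, held 1 in its first intron with neither motif. Mitochondrial genes held 25 in 15 of 264 (3.95 per Mb). Most of these were in carriers of the inner membrane, with 6 in SLC25A21, 4 in SLC25A48 and 3 in SLC25A26. The best of them was in SLC25A13, the aspartate and glutamate carrier, with an SBS2 hit 9.5 bp and 5.5 bp from the summits and ranks of 1246 and 1893. Collagen genes held 19 in 12 of 44 (3.18 per Mb), led by 4 in COL25A1.

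C2H2 zinc finger genes held 56 regions in 43 of 608 (2.69 per Mb), with 6 in ZNF608 and 4 in ZNF407. Their best region was an SBS2 site in the first intron of ZBTB7B, a regulator of T cell fate (ranks 431 and 674). CTCF and cohesin genes held 5 in 3 of 16, with 3 in STAG2, 1 in HDAC8 and 1 in NIPBL, the cohesin loader. All 3 in STAG2 had a CTCF hit, and 2 of them also lie inside TENM1, which overlaps STAG2 in the annotation. Their percentiles were 0.79, 9.82 and 3.48 untreated and 40.6, 77.8 and 79.6 with dTAG-V1. In the same order, the untreated −log10 q-values were 2.65, 4.53 and 3.31, and the summits lay 163 bp, 71 bp and 247 bp apart. The CTCF hit was 244.5 bp, 57.5 bp and 290.5 bp from the untreated summit. The NIPBL region had neither motif.

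The lowest densities were in the remaining lists. Cell adhesion genes held 21 in 8 of 43 (1.18 per Mb), with 6 in CNTNAP2 and 4 in NRXN3. Receptor tyrosine phosphatase genes held 14 in 8 of 20 (1.68 per Mb), voltage-gated ion channel genes 17 in 11 of 69 (1.77 per Mb) and kinesin genes 6 in 6 of 39 (1.82 per Mb). The best phosphatase and kinesin regions were an SBS2 site in PTPRH (ranks 810 and 1132) and a region with neither motif in KIF25 (4548 and 2268). Imprinted genes held 1 region in 19 genes, in ZIM2, without either motif. The 53 clustered protocadherin genes, whose promoters are known CTCF sites, held none, in 0.282 Mb of searched sequence. At the 3.16 per Mb of all protein-coding genes, that length is too short for the absence to count as a depletion.

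Chromosomes differed in how many regions they held. Chromosome 2 held 113, or 1.23 per Mb, whereas the other autosomes and X held 2.2 to 5.81 per Mb. Of the regions on chromosome 2, 7.08% had a CTCF hit, compared with 18.1% to 51.1% elsewhere. The share with an SBS hit on chromosome 2, 17.7%, lay within the range elsewhere of 9.38% to 58.2%. Chromosome 19 was the highest for SBS (58.2%), and chromosome 22 for CTCF (51.1%). Without chromosome 2, left out after the data had been seen, the shares over all regions were 31.3% for CTCF and 22.5% for SBS. The cause of the low values of chromosome 2 was not tested.

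The edge of the TSS windows was not a sharp border. The 110 regions centred within 250 bp outside a window had CTCF hits in 29.1% and SBS hits in 36.4%, with median percentiles of 47.2 untreated and 66.3 with dTAG-V1. The 134 shared regions centred inside a window within 250 bp of its end had 26.1% and 37.3%, with percentiles of 43.98 and 55.7. Regions next to the windows thus had SBS hits more often than the 22.3% of all intragenic shared regions.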

How the data were processed

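ChIP-seq with the Proteintech ZNF143 antibody was represented by 1 peak list for the 4 untreated samples and 1 for the 4 samples treated with dTAG-V1 (0.5 µM, 30 min). Of the 14 samples of the series, the 6 CTCF samples were not analysed here. The labels name BWA, SAMtools, Picard and deepTools without versions. According to the study's methods, reads were mapped to hg38 with bwa mem, filtered for mapping quality and proper pairs, and freed of duplicates. MACS2 then called narrow peaks, for which no control library is named, and peaks in each untreated replicate and in any treated replicate were kept. Whether the deposited lists had passed that last filter is not given in the sources used here. Peaks of untreated cells carry DMSO in their names. The labels, which give no treatment, were followed.

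In the deposited lists, the score is 10 times the −log10 q-value, cut to a whole number. The deposited fold enrichment is a ratio over the local background of the call, and the deposited −log10 q-value comes from the authors' call, with lowest values of 2.01 in both lists. The scales and lengths of both lists differ, so classes were described by percentile within a list, and the ranks and fold enrichments given for single regions are not compared between lists. Sequencing depth is unknown from these files, and a peak near the threshold can be missed in 1 list without any change in binding. No column of per-sample values was left unused (0).

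Lists were merged and annotated against GENCODE 44 with samtools 1.23.1, pysam 0.24.0 and Python 3.11.15 (pandas 2.3.3, numpy 2.4.6, matplotlib 3.10.9, scipy 1.17.1). TSS windows used the 5′ ends of all annotated transcripts. CTCF, SBS1 and SBS2 matrices were learned from merged peaks on odd-numbered autosomes, from a consensus with at most 2 mismatches, in 10 rounds (pseudocount 0.8, sites at p 1e-06). A hit at p 1e-05 that overlapped the region by 1 bp was counted, and SBS is either SBS type. Since the matrices were learned partly on these regions, the chromosomes not used for learning are given as an alternative. The scripts were tested on simulated data.

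No test was made, since each condition has 1 list. The regions and gene lists were chosen with earlier results of these data known. Genes named are the 3 regions of each motif class with the lowest sum of ranks, the 10 genes with most regions, the 3 largest rises and falls in percentile for each motif, and the best region of each gene list. The regions with the strings, and those in ZNF143, STAG2 and EZH2, were added after their values were seen. Some regions that these rules name are not reported here. The share masked as repeats was planned and not run, because the genome used here is not masked.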

Additional observations from a re-analysis of the deposited data

How the results depend on the processing

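The number of regions changed by less than 1.5 times under every alternative for merging, q-value or windows. The CTCF share (30.5%) was 28.6% with −log10 q of at least 5 in both lists and 27.2% on chromosomes not used to learn the matrices. The SBS share (22.3%) was 20.5% on those chromosomes. With windows of 5 kb on each side the CTCF share was 27.9%, the SBS share 20.4% and the exon share 4.76%. With the 5′ ends of genes only, the SBS share was 28.4% and the exon share 12.4%. Hits at p 5e-05 gave 40.7% for CTCF and 43.9% for SBS (flanks 16.96% and 40.9%), so that SBS was barely above its flanks and more frequent than CTCF, which turns the order of both motifs. Hits at p 1e-06 gave 21.2% and 10.2%, hits within 100 bp of the centre 20.01% and 12.8%, and the written consensus 42.7% and 3.58%. For SBS2 on the strand of the gene (28.8%), alternatives chosen after seeing the data gave 35.7% with exactly 1 SBS hit and 21.2% at p 1e-06.

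Ranking by fold enrichment gave median percentiles of 63.9 with dTAG-V1 over all regions, 29.7 untreated for CTCF only, and 40.8 untreated and 53.1 with dTAG-V1 for neither motif. Leaving out regions with a neighbouring string, also chosen afterwards, gave 67.0 and 66.5 for SBS only. HOX density was 132.7 per Mb with the 5′ ends of genes only. Of 51 values under alternatives, 26 moved by less than their counting interval and 25 by more. No paired analysis was possible because the lists are pooled and no result comes from a test, and for the same reason no replicate could be left out. Depth is unknown, so a region missing from 1 list is not evidence of absence.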
